A study of Mus musculus with 24 samples.

Results

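Heat shock proteins and their J-domain partners are the molecular chaperones that fold, hold and refold proteins in every cell. In the deposited transcript table they were taken as the RefSeq mRNAs whose symbols name an alpha crystallin or small heat shock protein (Hspb genes and Cryab), an HSP70 or HSP110 (Hspa and Hsph1), an HSP90, the mitochondrial chaperonin pair Hspd1 and Hspe1, or a J-domain protein of the Dnaja, Dnajb or Dnajc families. Where a gene had several RefSeq mRNAs, the one with the highest mean level over the 24 libraries was used. This gave 75 members among the 20461 RefSeq mRNA symbols of the table. They fell into 3 HSP90, 11 HSP70, 3 HSP110, 9 small HSP, 2 chaperonin, 4 DNAJA, 13 DNAJB and 28 DNAJC genes. The remaining 2, Hspbp1 and Hspbap1, were matched by the start of their symbol and encode binding partners of chaperones, and Hspb11 among the small HSPs is a part of the intraflagellar transport machinery. By the place where the protein works, 42 were assigned to the cytosol and nucleus, 15 to the endoplasmic reticulum (ER), 10 to the mitochondrion, 5 to vesicles or endosomes and 3 to none of these.

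The cells were primary preadipocytes from the stromal vascular fraction of inguinal white fat of 129SvEv mice (129S6sv/ev in the methods of the study). All groups were differentiated with rosiglitazone, which turns such cells into brite adipocytes, white fat cells with the heat-producing programme of brown fat. Early in differentiation they were reverse transfected with a gapmer at 50 nM. A gapmer is a short DNA strand with locked nucleic acid ends that pairs with an RNA and lets RNase H cut it. It was directed either at the long noncoding RNA Ctcflos (KD) or at no transcript (NC). RNA was taken 24 h or 72 h later, and each combination of gapmer and time (written KD 24 h or NC 72 h, for example) had 6 libraries. The cells were bulk cultures of primary fat progenitors, 1 gapmer stood for the knockdown, and legends of the study call the samples of its transcriptome experiment biological replicates. The labels do not say whether these were separate cultures or animals, so p-values measure only the spread between these samples.

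As background, HSP70 proteins bind short hydrophobic stretches of unfolded chains and release them on a cycle of ATP hydrolysis. J-domain proteins bring the clients and start the hydrolysis, and exchange factors such as the HSP110s reset the cycle. HSP90 takes over clients that are nearly folded, many of them kinases and hormone receptors, while small HSPs hold unfolded proteins in large assemblies without using ATP. The ER and the mitochondrion each have an HSP70 and an HSP90 or chaperonin of their own. Genes of the cytosolic set are known targets of heat shock factor 1 (HSF1), which binds inverted repeats of the unit GAA, and those of the ER set are known targets of the unfolded protein response through ATF6 and XBP1. Fat cells rely on both systems, since they secrete much protein and, in brown and brite cells, make many mitochondria.

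Transcript 3′ ends were sequenced, and the totals recovered from the steps of the RPKM values (reads per length of the transcript and per mapped read of the library) lay around a median of 4009998 mapped reads, between 1391832 and 5423840 in all libraries but NC 72 h replicate 6. There the recovered total was 5926375, but only 14.9% of its low values were odd numbers of reads, against 54.2% to 56.0% in the other libraries, so that its depth is uncertain. The lowest total, 1391832, was that of KD 24 h replicate 6, and the next lowest was 2906381 in NC 72 h replicate 1. NC 72 h replicates 2 and 3 differed by less than the sampling noise, and their mean entered as 1 sample, which left n = 5 in that group. Ctcflos has 2 entries in the table, with all groups near the lower limit of detection. The RefSeq entry NR_040321 stood at 25.5% of its control level at 24 h and at 18.8% at 72 h (two-sided exact permutation p = 0.0455 and p = 0.00216). The Ensembl entry ENSMUST00000144256, the isoform called transcript 1 in the study, stood at 59.4% at 24 h and at 8.37% at 72 h (two-sided exact permutation p = 0.37 and p = 0.00649), so that its knockdown at 24 h was not detectable at this depth. The summed level of 6 adipocyte markers was 37124 to 49763 scaled RPKM in KD 24 h and 50342 to 52802 in NC 24 h, then 26195 to 35409 in KD 72 h and 36589 to 48221 in NC 72 h. That of 5 brite markers was 326 to 476 in KD 24 h, 457 to 889 in NC 24 h, 380 to 722 in KD 72 h and 1254 to 2122 in NC 72 h. Sums of stromal markers were 403 to 804 in KD 24 h, 442 to 1027 in NC 24 h, 686 to 876 in KD 72 h and 393 to 1031 in NC 72 h, of the same order as the brite sums, and 2 of the 5 stromal markers tested at 72 h were called higher in KD (median log2 fold change 0.27), against 0 of 6 at 24 h. Sums of macrophage (2.58 to 29.9), endothelial (0.193 to 3.03), muscle (1.45 to 35.5), epithelial (0 to 1.78) and Schwann cell markers (0.716 to 2.26) were far lower. The part of the lower fat cell programme and of the stromal markers in the chaperone results was not tested, and in bulk RNA fewer cells of a type and less RNA per cell cannot be told apart. The libraries also fell into 2 clusters that the labels do not name, with 16 in the larger and 8 in the smaller (KD 24 h replicates 3 and 4, NC 24 h replicates 5 and 6, KD 72 h replicates 5 and 6, NC 72 h replicates 4 and 5), and values within a cluster are given beside the main results.

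Among the entries used here, the most abundant chaperone mRNAs of the control cells came from the mitochondrion and the ER. At NC 24 h Dnajc15, a J protein of the mitochondrial inner membrane, led with 489 ± 15.3 scaled RPKM (SD, n = 6), and Hspe1, the small lid of the mitochondrial chaperonin, followed with 430 ± 29.7. Hsp90b1 (GRP94), the HSP90 of the ER, stood at 331 ± 10.5 and Hsp90ab1, the constitutive cytosolic HSP90, at 192 ± 8.68. The ranges of these 4 genes did not overlap. Dnaja3 (137 ± 12.8), the mitochondrial partner of HSP70, and Hspa5 (BiP, 137 ± 3.06), the HSP70 of the ER, shared the next place, with ranges that overlapped. Dnajc8 (79.4 ± 10.9), Hspd1 (75.1 ± 6.88) and Hspa9 (72.8 ± 8.16), the latter both of the mitochondrial matrix, could not be ordered beyond their spread. Reads come from the 3′ end whereas RPKM divides by the whole length, so levels of genes with transcripts of different length compare only roughly. The order also depends on the entry chosen for a gene. Over all libraries other entries of Hsp90b1 and Dnaja3 had means of up to 795 and 359 RPKM, against 255 and 126 for those used here. For Hspa8 the means were 76.4 and 1.13.

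**Figure D1:**
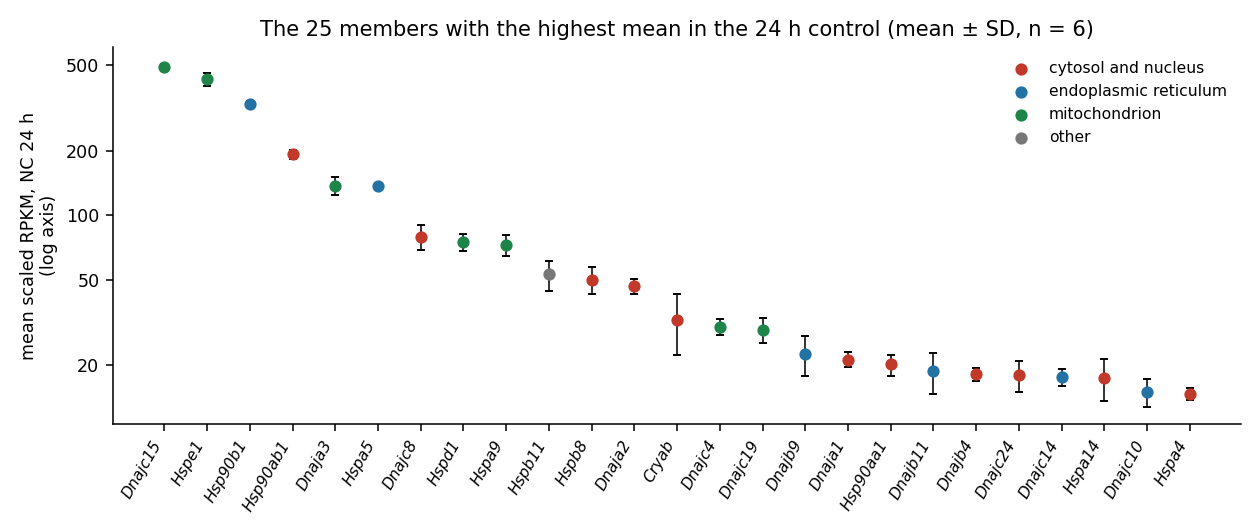
Mean scaled RPKM (log axis) with SD in the 6 NC 24 h samples for the 25 most abundant members, coloured by compartment. Dnajc15 (489), Hspe1 (430) and Hsp90b1 (331) stand above Hsp90ab1 (192), the most abundant cytosolic member. Levels are those of the RefSeq mRNA entry used for each member.

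In the knockdown comparisons a set of cytosolic HSP90, HSP70, HSP110 and small HSP mRNAs was higher in KD than in NC, and a few ER and mitochondrial chaperones were lower. Lower calls were no more frequent among the members than among all symbols. A gene was called when the adjusted p of limma (two-sided, Benjamini-Hochberg over every entry of the table that passed a filter on low values) was under 0.05. At 24 h 55 members entered the test, of which 12 were called higher (21.8%) and 5 lower (9.09%), together 30.9%. Among all RefSeq mRNA symbols tested at 24 h 24.2% were called, 11.6% higher and 12.5% lower. At 72 h 60 members entered, with 11 called higher (18.3%) and 4 lower (6.67%), together 25%. This compares with 23.6% of all symbols, 11.1% higher and 12.5% lower. The median log2 fold change of the members tested was 0.14 at 24 h and 0.12 at 72 h, beside 0.00 and 0.02 for all symbols tested. The KD and NC samples did not overlap in 6 members above and 4 below the controls at 24 h, where 5% and 7.83% of all symbols stood apart in these directions, and in 8 above and 3 below at 72 h, against 6.47% and 8.53%. On the deposited RPKM without further scaling the 72 h split became 22 higher and 0 lower, but the median of all symbols then moved to 0.26, so the calls below are relative to a scaling that holds that median near 0.

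In the cytosol and nucleus 10 of 27 members tested were higher and 0 lower at 24 h (median log2 fold change 0.38), and 11 of 32 were higher and 0 lower at 72 h (median 0.29). Hspb1 at both times and Hspa1a at 72 h passed the filter through their KD samples. Their higher calls lend these counts, and the member counts above, no support. Hspa4l, which was not called, entered at 72 h with 6 KD samples and 1 NC sample at the filter level. The medians of the cytosolic members and of all members include these genes, so that they too are raised in part by the filter. In the ER 1 of 13 was higher and 3 were lower at 24 h (median -0.23), and 0 were higher and 1 lower at 72 h (median -0.05). In the mitochondrion 0 of 10 were higher and 2 lower at 24 h (median -0.18), and 0 were higher and 3 lower at 72 h (median -0.29). Without scaling the 72 h counts became 16 higher of the cytosolic members, 3 higher of the ER members and 1 higher of the mitochondrial members, with 0 lower in each and medians of 0.54, 0.19 and -0.04. Of all 9837 symbols tested 2496 were then higher and 576 lower. The lower calls at 72 h held only relative to the median gene. Within the smaller cluster alone, with 2 libraries a group, the 24 h counts were 1 higher and 0 lower in the cytosol and nucleus, 0 and 1 in the ER and 0 and 0 in the mitochondrion (medians 0.28, -0.02 and -0.11), and the 72 h counts 7 and 0, 0 and 0, and 0 and 1 (medians 0.20, 0.01 and -0.12). Of all symbols, only 2.61% were called within the smaller cluster alone at 24 h and 9.91% at 72 h. Of the vesicle members 2 were tested and 0 called at either time.

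**Figure D2:**
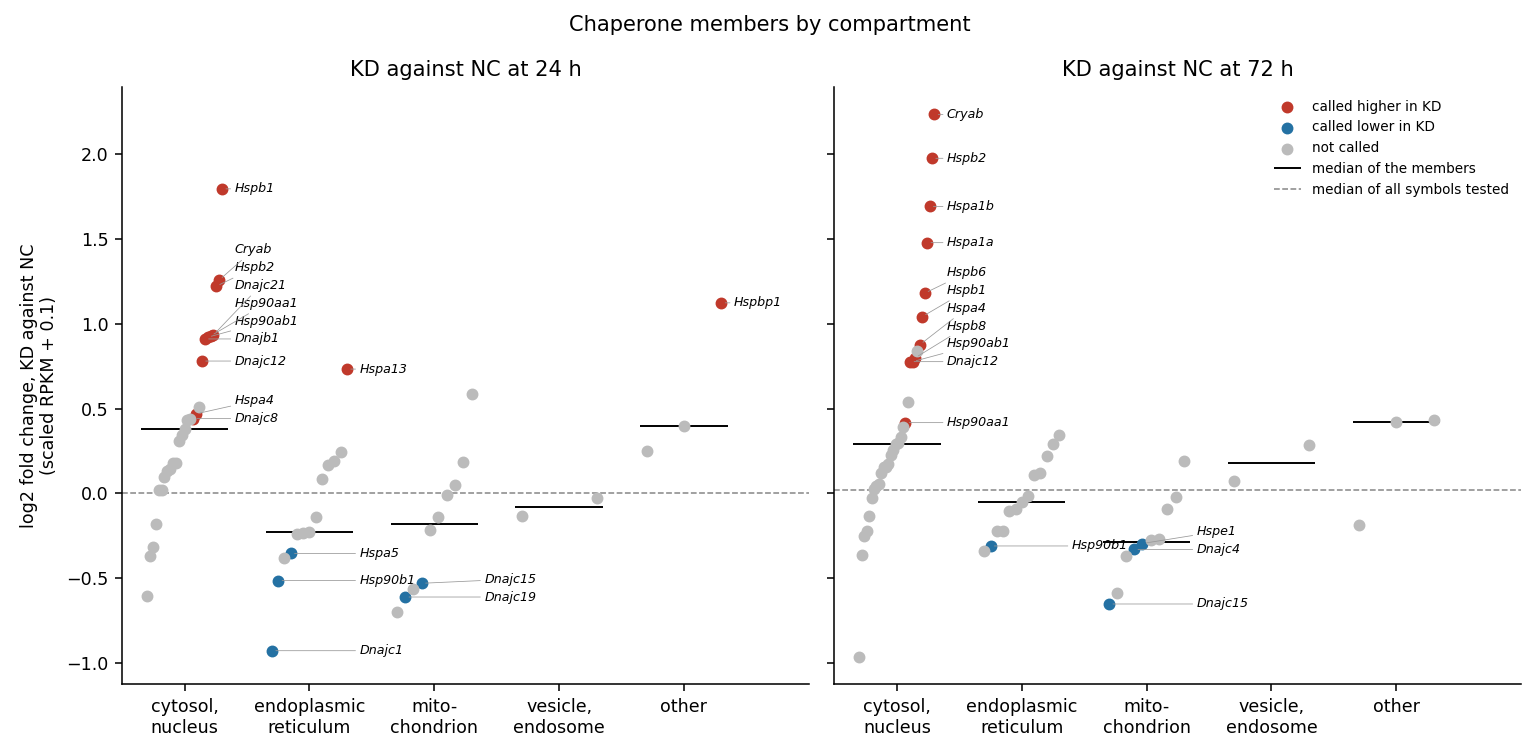
Log2 fold change of KD against NC for each member tested at 24 h (left) and 72 h (right), by compartment, with red points called higher, blue points called lower and grey points not called. Black lines mark the median of a compartment, 0.38 and 0.29 for the cytosol and nucleus, and the dashed line the median of all symbols tested. The cytosolic medians include members that passed the filter through their KD samples.

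All 3 HSP90 genes among the members were called at both times, the cytosolic pair higher and the ER form lower. Hsp90ab1 lay at 182 to 204 scaled RPKM in NC 24 h (median 191) and at 262 to 488 in KD 24 h (median 374). At 72 h its NC samples read 153, 168, 170, 173 and 183, and the KD samples 274 to 317 (median 284). Neither time showed any overlap between the groups. The log2 fold change was 0.92 ± 0.14 (SE) at 24 h (limma adjusted p = 0.00062) and 0.78 ± 0.08 at 72 h (adjusted p = 2e-05). Within the smaller cluster alone the 24 h value of Hsp90ab1 was 0.46 and still called (limma adjusted p = 0.029).

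Hsp90aa1, the stress-inducible cytosolic HSP90, was at 17.0 to 22.2 in NC 24 h (median 21.2) and at 26.2 to 59.6 in KD 24 h (median 39.0), with KD replicate 6 the highest and no overlap. The log2 fold change came to 0.93 ± 0.18 (limma adjusted p = 0.0027). The 72 h NC samples of Hsp90aa1 read 18.7, 20.3, 20.9, 24.5 and 26.7 and the KD samples 26.2 to 35.95 (median 28.5), so that the groups touched. The log2 fold change of 0.42 ± 0.12 (adjusted p = 0.024) lost its call without KD replicate 1, without NC replicates 2 and 3 or without NC replicate 5, at values from 0.36 to 0.38. In the smaller cluster alone Hsp90aa1 stood at 0.36 at 24 h (adjusted p = 0.21). All 12 other transcript entries of Hsp90aa1 that were tested had the same sign at both times.

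Hsp90b1 went the other way. It was at 323 to 347 in NC 24 h (median 326) and at 182 to 270 in KD 24 h (median 235), without overlap, a log2 fold change of -0.51 ± 0.10 (limma adjusted p = 0.0038). At 72 h the NC samples read 224, 239, 251, 281 and 286 and the KD samples 196 to 225 (median 201), so that the highest KD sample met the lowest NC sample. The value at 72 h was -0.31 ± 0.09 (adjusted p = 0.019). It was -0.06 on unscaled RPKM (adjusted p = 0.7), and -0.27 without NC replicates 2 and 3 (adjusted p = 0.051). Hsp90b1 had 8 other tested entries, all below 0 at both times.

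The small HSPs held the largest fold changes. Of the 9 genes 6 were tested at 24 h, with 3 higher and 0 lower, and 7 at 72 h, with 5 higher and 0 lower. Hspb1 is among the higher calls at both times but passed the filter through its KD samples, so it lends these counts no support. Cryab (alpha B crystallin), a holdase best known from lens and muscle, had 21.8 to 47.2 scaled RPKM in NC 24 h (median 31.6) and 52.1 to 110 in KD 24 h (median 68.5). At 72 h its NC samples read 44.4, 48.4, 48.6, 58.3 and 63.2 and its KD samples 162 to 314 (median 275). The groups were apart at both times, and the smaller cluster held the lowest pair of KD values at 72 h. Cryab was 2.39-fold higher at 24 h (log2 1.26 ± 0.21, limma adjusted p = 0.0015) and 4.71-fold higher at 72 h (log2 2.24 ± 0.17, adjusted p = 3.2e-06). Within the smaller cluster alone the log2 values of Cryab were 0.42 at 24 h (adjusted p = 0.15) and 1.54 at 72 h (adjusted p = 0.00028).

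Hspb2, which lies next to Cryab on chromosome 9, ran from 2.47 to 6.79 in NC 24 h (median 5.95) and from 6.26 to 21.9 in KD 24 h (median 13.4). The groups overlapped through KD replicate 3, and the log2 fold change was 1.22 ± 0.31 (limma adjusted p = 0.012). The NC samples of Hspb2 at 72 h read 5.95, 6.88, 7.86, 8.79 and 9.99 and the KD samples 17.4 to 42.9 (median 36.1), apart from each other. The log2 value of Hspb2 was then 1.98 ± 0.24 (adjusted p = 8.8e-05). Where 2 neighbouring genes share reads their values are not independent, and the handling of strand was not given in the sources used here.

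Hspb1 (HSP25), a small HSP that guards actin filaments, was at 0.346 to 6.14 in NC 24 h (median 2.48) and at 5.92 to 9.79 in KD 24 h (median 8.69). NC replicates 5 and 6, both of the smaller cluster, reached into the KD range. Hspb1 had a log2 fold change of 1.80 ± 0.50 at 24 h (limma adjusted p = 0.02) and 0.22 within the smaller cluster alone (adjusted p = 0.68). At 72 h the NC samples of Hspb1 read 1.47, 2.45, 2.95, 3.64 and 5.68 and the KD samples 3.67 to 8.57 (median 6.05). The log2 value of 1.04 ± 0.30 (adjusted p = 0.025) lost its call when KD replicate 2 or 3 or NC replicate 1 or 4 was left out, at 0.80 to 0.98. Hspb1 passed the filter at 24 h with 6 KD and 3 NC samples at the level it asks for, and at 72 h with 6 and 2.

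Hspb6 (HSP20) and Hspb8 (HSP22, the partner of BAG3 in selective autophagy) were called at 72 h alone. Hspb6 had 6.48, 9.81, 10.5, 10.9 and 15.6 in NC 72 h and 19.5 to 32.7 in KD 72 h (median 22.2), without overlap, and a log2 fold change of 1.18 ± 0.20 (limma adjusted p = 0.00092). At 24 h its NC samples ran from 11.2 to 17.2 and 5 of the 6 KD samples from 20.1 to 25.5, while KD replicate 6 read 6.80. The 24 h value of Hspb6 was 0.44 ± 0.26 (adjusted p = 0.24), and 0.71 without that replicate (adjusted p = 0.002), which is the library with the fewest mapped reads.

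Hspb8 had 36.0, 36.2, 50.3, 59.1 and 60.7 in NC 72 h and 63.3 to 103 in KD 72 h (median 83.1), without overlap, a log2 fold change of 0.80 ± 0.17 (limma adjusted p = 0.0044). At 24 h Hspb8 had a log2 value of 0.18 ± 0.12 (adjusted p = 0.3), with 55.7 ± 6.22 in KD and 50.0 ± 7.22 in NC (SD, n = 6 each).

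Hspb7, a small HSP of heart and muscle named here after its value was seen, had the opposite sign and fell just short of a call. Its NC 72 h samples read 0.805, 1.18, 1.20, 1.45 and 2.11 and its KD 72 h samples 0.362 to 1.04 (median 0.577), with overlap, a log2 fold change of -0.97 ± 0.33 (limma adjusted p = 0.05). At 24 h Hspb7 was not tested, with 0.232 to 0.918 in KD and 0.455 to 2.81 in NC. Hspb11 gave -0.19 ± 0.17 at 72 h (adjusted p = 0.46).

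The HSP70 genes of the cytosol differed among themselves. Hspa1b, a stress-inducible HSP70, was at 2.33 to 4.84 in NC 24 h (median 3.34) and at 2.49 to 6.11 in KD 24 h (median 4.72), with a log2 fold change of 0.38 ± 0.24 (limma adjusted p = 0.27). At 72 h its NC samples read 1.82, 1.82, 1.89, 2.63 and 3.12 and its KD samples 5.51 to 8.26 (median 7.61), and the groups were well apart. The 72 h value of Hspa1b was 1.69 ± 0.19 (adjusted p = 5.3e-05), with 1.76 in the larger cluster and 1.61 in the smaller.

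Hspa1a, its near copy on chromosome 17, had 0, 0.478, 0.653, 0.664 and 0.793 in NC 72 h and 0.855 to 2.01 in KD 72 h (median 1.23), a log2 fold change of 1.48 ± 0.50 (limma adjusted p = 0.046). Hspa1a passed the filter at 72 h through 5 KD samples and 0 NC samples, that is, through the group where it is high. Of the 11 fits that left out a library 6 tested Hspa1a, with values from 0.89 (without NC replicate 1, the sample at 0) to 1.69, and the call was lost without KD replicate 4, NC replicate 5 or NC replicate 6. At 24 h Hspa1a was too low to be tested, with 0.597 to 1.61 in KD and 0.223 to 0.827 in NC. Reads of this pair of genes can be assigned to either copy, so their separate levels are uncertain. The windows before their start sites were identical at 296 of the 300 bases compared (98.7%).

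Hspa8 (HSC70), the constitutive cytosolic HSP70, had a RefSeq mRNA entry with group means of only 0.919 to 1.22 scaled RPKM. It was not tested at 24 h, and at 72 h its log2 fold change was 0.05 ± 0.35 (limma adjusted p = 0.94). An Ensembl entry of Hspa8, ENSMUST00000167402, was far more abundant. It stood at 84.4 ± 7.33 in KD 24 h and 73.6 ± 4.08 in NC 24 h (log2 0.21 ± 0.09, adjusted p = 0.11), then at 70.4 ± 4.35 in KD 72 h and 78.7 ± 24.6 in NC 72 h (log2 -0.11 ± 0.15, adjusted p = 0.64). Neither entry of Hspa8 was called at any time.

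Hspa4, an HSP110 that exchanges the nucleotide of HSP70, had 13.2 to 15.9 in NC 24 h (median 14.9) and 16.2 to 28.6 in KD 24 h (median 19.4). At 72 h its NC samples read 10.7, 11.1, 11.9, 12.5 and 13.3 and its KD samples 20.01 to 24.9 (median 21.6). No KD sample of Hspa4 reached down to the NC range at either time. The log2 fold change was 0.88 ± 0.11 at 72 h (limma adjusted p = 0.00014). At 24 h it was 0.47 ± 0.15 (adjusted p = 0.031), and that call was lost without KD replicate 1 or 5 or any of NC replicates 2 to 6, at values from 0.43 to 0.48. Hsph1, the other abundant HSP110, was not called, with 0.14 ± 0.20 at 24 h (adjusted p = 0.64) and 0.25 ± 0.28 at 72 h (adjusted p = 0.55).

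In the ER Hspa5 (BiP) had 132 to 140 scaled RPKM in NC 24 h (median 138) and 100 to 119 in KD 24 h (median 104). All 6 KD samples were below all 6 NC samples, and 5 of them read 100 to 104. Its log2 fold change was -0.35 ± 0.08 at 24 h (limma adjusted p = 0.0082). At 72 h the NC samples of Hspa5 read 101, 110, 113, 121 and 130 and the KD samples 82.8 to 117 (median 96.9), with overlap, and the value was -0.22 ± 0.10 (adjusted p = 0.15) or 0.03 on unscaled RPKM.

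Dnajc1 (ERdj1), a membrane J protein of the ER, had 3.91 to 4.71 in NC 24 h (median 4.49) and 1.68 to 3.04 in KD 24 h (median 2.17), without overlap. Dnajc1 gave a log2 fold change of -0.93 ± 0.19 (limma adjusted p = 0.0038), and at 72 h -0.34 (adjusted p = 0.17). Hspa13, an HSP70 relative of the ER, was called higher at 24 h, with 3.44 to 6.32 in NC (median 4.88) and 5.38 to 10.3 in KD (median 8.33). The groups of Hspa13 overlapped through KD replicate 6, and the values were 0.73 ± 0.20 at 24 h (adjusted p = 0.017) and 0.35 ± 0.17 at 72 h (adjusted p = 0.16).

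Other co-chaperones of BiP were not called in the entries used here. Dnajb9 (ERdj4) had log2 values of -0.14 at 24 h and -0.22 at 72 h (limma adjusted p = 0.55 and 0.2), Dnajb11 (ERdj3) -0.38 and 0.22 (adjusted p = 0.14 and 0.36), and Dnajc3 (p58IPK) 0.19 and 0.11 (adjusted p = 0.29 and 0.53). Other entries of these genes were in part called at 72 h. Of 9 others of Dnajb11 2 were higher, and of 3 others of Dnajc3 1 was higher and 1 lower. The ER HSP70 and HSP90 were lower at 24 h while the values of these J-domain partners lay on both sides of 0.

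**Figure D3:**
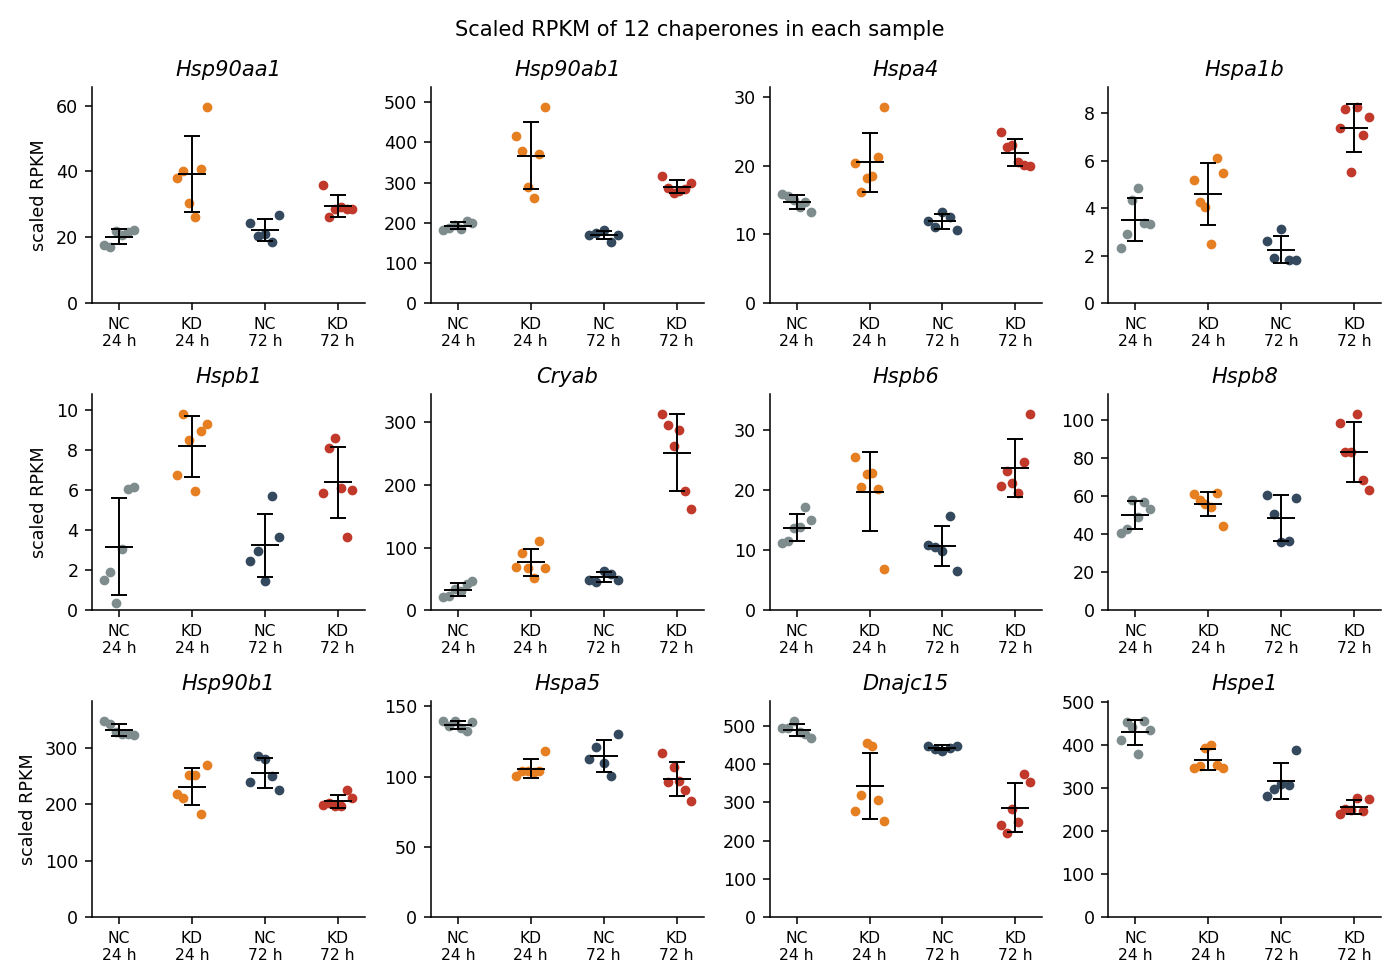
Scaled RPKM of 12 chaperones in each sample (linear axes from 0), with the mean and SD of each group in black. In Hsp90ab1, Cryab and Hspa4 the KD samples lie above the NC samples at both times, in Hsp90b1 and Hspa5 at 24 h and Dnajc15 at both times below them.

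In the mitochondrion Dnajc15, a J protein of the import motor, was lower at both times. It had 468 to 513 scaled RPKM in NC 24 h (median 489) and 252 to 456 in KD 24 h (median 312). At 72 h the NC samples of Dnajc15 read 435, 441, 443, 449 and 449, a narrow band, and the KD samples 220 to 374 (median 265). No sample overlapped at either time, and the highest KD pair at each time belonged to the smaller cluster. The log2 fold change was -0.53 ± 0.14 at 24 h (limma adjusted p = 0.013) and -0.65 ± 0.13 at 72 h (adjusted p = 0.0028). Within the larger cluster alone Dnajc15 gave -0.79 and -0.84, and within the smaller -0.06 and -0.26, of which neither was called. On unscaled RPKM the 72 h value was -0.40 (adjusted p = 0.063).

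Dnajc19 (TIM14), the other J protein of the import motor, was at 23.9 to 34.2 in NC 24 h (median 29.8) and at 14.5 to 24.4 in KD 24 h (median 18.7), overlapping through NC replicate 6 and KD replicate 4. For Dnajc19 the log2 fold change was -0.61 ± 0.15 at 24 h (limma adjusted p = 0.009) and -0.28 ± 0.25 at 72 h (adjusted p = 0.45). Dnajc19 has a pseudogene copy that can share its reads.

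Hspe1 (HSP10) had 283, 298, 307, 310 and 389 in NC 72 h and 239 to 277 in KD 72 h (median 250), without overlap. Its log2 fold change was -0.30 ± 0.09 (limma adjusted p = 0.033), a call that was lost on unscaled RPKM (-0.05) and without KD replicate 1, 2, 3 or 5 or NC replicate 5 or 6 (-0.22 to -0.31). At 24 h Hspe1 gave -0.22 ± 0.08 (adjusted p = 0.074). Hspd1 (HSP60), which lies head to head with Hspe1 on chromosome 1, had -0.02 ± 0.13 at 72 h (95% interval -0.30 to 0.26, adjusted p = 0.93) and 0.18 ± 0.13 at 24 h (adjusted p = 0.3).

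Dnajc4, a small J protein, read 31.0, 32.9, 33.3, 33.4 and 39.5 in NC 72 h and 22.5 to 30.3 in KD 72 h (median 27.5), a log2 fold change of -0.33 ± 0.11 (limma adjusted p = 0.047) and a call lost in 9 of the 11 fits that left out a library, all but those without KD replicate 5 or 6. Its 24 h value was -0.70 ± 0.31 (adjusted p = 0.12). Hspa9 (mortalin), the matrix HSP70, had 65.7 to 212 in KD 24 h (median 110) and 72.8 ± 8.16 in NC 24 h (SD, n = 6). The KD samples of Hspa9 spread on both sides of the controls, with replicate 6 the highest and replicates 3 and 4 the lowest, and the log2 value was 0.59 ± 0.23 (adjusted p = 0.081). It was called without KD replicate 3 (0.71, adjusted p = 0.035) or replicate 4 (0.73, adjusted p = 0.025). Dnaja3 had 48.8 to 126 in KD 72 h (median 121) and 145 ± 21.5 in NC 72 h (SD, n = 5), with KD replicates 5 and 6 the lowest, and its value was -0.59 ± 0.23 (adjusted p = 0.086), or -0.64 with the cluster as a covariate (adjusted p = 0.0042).

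The other J proteins give HSP70 its clients, and their calls are set beside the 24.2% and 23.6% of all symbols called at 24 h and 72 h. Of the 4 DNAJA genes 0 were called in limma at either time, and 1 and 2 had an unadjusted p under 0.05 at 24 h and 72 h. Of all symbols tested, 3656 of 9381 at 24 h and 3593 of 9837 at 72 h had such a p. Dnaja1, the main partner of HSC70, had log2 values of -0.18 at 24 h (limma adjusted p = 0.34) and 0.17 at 72 h (adjusted p = 0.31). Of the 7 DNAJB genes tested 1 was called higher at 24 h (14.3%) and 0 at 72 h. Dnajb1 (HSP40), the stress-inducible J protein, had 6.37 to 8.50 in NC 24 h (median 7.14) and 7.82 to 20.3 in KD 24 h (median 15.3), overlapping through KD replicate 4. Its log2 fold change was 0.91 ± 0.23 at 24 h (adjusted p = 0.011) and 0.33 ± 0.19 at 72 h (adjusted p = 0.22). Dnajb4 gave 0.18 and 0.05 (adjusted p = 0.25 and 0.85).

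Of the DNAJC genes, which are mostly specialised, 3 of 22 tested were higher and 3 lower at 24 h (27.3%), and 1 of 23 was higher and 2 lower at 72 h (13%). Dnajc12, a J protein that binds HSC70 and is needed for stable aromatic amino acid hydroxylases, was the member higher at both times. It had 7.86 to 9.50 in NC 24 h (median 8.71) and 10.4 to 19.2 in KD 24 h (median 16.5), without overlap, a log2 fold change of 0.78 ± 0.17 (limma adjusted p = 0.0053). The 72 h samples of Dnajc12 in NC read 6.42, 7.62, 8.90, 11.3 and 11.5 and the KD samples 9.77 to 21.2 (median 15.7), with a value of 0.78 ± 0.21 (adjusted p = 0.016).

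Dnajc8, a splicing-associated J protein, rose at 24 h from 79.4 ± 10.9 to 107 ± 14.1 (SD, n = 6 each; log2 0.44 ± 0.12, limma adjusted p = 0.018), with 0.16 at 72 h (adjusted p = 0.29). Dnajc21, a factor of ribosome maturation, went from 5.45 ± 1.99 to 10.3 ± 3.81 at 24 h (log2 0.93 ± 0.27, adjusted p = 0.024), a call lost without KD replicate 1 or NC replicate 3, 5 or 6 (0.79 to 0.87). Hspbp1, which removes the nucleotide from HSP70, had 4.18 to 10.5 in NC 24 h (median 7.58) and 10.8 to 30.3 in KD 24 h (median 15.6), just apart. Hspbp1 gave a log2 fold change of 1.12 ± 0.27 at 24 h (adjusted p = 0.0092) and 0.42 ± 0.16 at 72 h (adjusted p = 0.08).

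To set these values beside the DNA that controls them, the promoter windows of RefSeq (build GRCm38.p6, 250 bases before to 50 after each start site) were searched on both strands. A window was found for 60 of the 75 members. Of the 15 without one, Cryab, Hspb2, Hsp90aa1, Hsp90ab1, Hspa8, Hspa9, Hspa13 and Dnajc12 are named above. The letters searched for HSF1 were GAANNTTC and TTCNNGAA (2 facing units in either order) and GAANNTTCNNGAA (3 units, which contains both). For the ER stress response element they were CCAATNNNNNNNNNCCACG, which contains a CCAAT box. A match is a stretch of letters and no measured binding site.

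GAANNTTC was present in 14 of the 60 member genes (23.3%), against 9.04% of the 27025 genes with a window. TTCNNGAA was present in 6 (10%) against 9.6%, and the 3-unit form in 4 (6.67%) against 0.662%. In each of these counts the head-to-head genes Hspd1 and Hspe1 both enter through the same bases. Sequence is shown for 4 of the 5 members with GAANNTTC that were called higher at 72 h (the fifth, Hspa1a, nearly repeats Hspa1b). It is given, with the matched letters in capitals, as the 250 bases up to the start site or, for Hspb8, 30 bases around it. Where a gene had several windows, the one with most matches was taken. Another window of Hspb6, at a different start site, held no such match.
Hspa1b, chr17:34959239-34959488, minus strand: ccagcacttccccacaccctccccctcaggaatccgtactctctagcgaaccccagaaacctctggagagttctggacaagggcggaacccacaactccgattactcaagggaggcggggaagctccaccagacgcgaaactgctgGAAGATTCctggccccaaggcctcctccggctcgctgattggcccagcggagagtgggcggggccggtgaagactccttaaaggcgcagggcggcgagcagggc
Hspb1, chr5:135887669-135887918, plus strand: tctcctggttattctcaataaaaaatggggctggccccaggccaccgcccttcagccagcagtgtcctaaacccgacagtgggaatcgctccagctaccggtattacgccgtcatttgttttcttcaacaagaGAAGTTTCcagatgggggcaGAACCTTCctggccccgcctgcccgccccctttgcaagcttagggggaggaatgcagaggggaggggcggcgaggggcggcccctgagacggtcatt
Hspb6, chr7:30553051-30553300, plus strand: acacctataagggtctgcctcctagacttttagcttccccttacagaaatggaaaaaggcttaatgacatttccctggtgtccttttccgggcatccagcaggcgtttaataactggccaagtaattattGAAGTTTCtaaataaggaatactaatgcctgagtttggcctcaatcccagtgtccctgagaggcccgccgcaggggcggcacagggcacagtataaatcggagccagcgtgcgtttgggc
Hspb8, chr5:116422844-116422873, minus strand: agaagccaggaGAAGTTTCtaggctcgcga
The match centres lay 100 bases before the start site in Hspa1b and in Hspa1a, at 113 and 93 before it in Hspb1, at 116 before it in Hspb6, and at 6 after it in Hspb8. For contrast, Hspe1 carries 2 overlapping matches of the 3-unit form, facing opposite ways, and was lower at 72 h.
Hspe1, chr1:55087898-55088147, plus strand: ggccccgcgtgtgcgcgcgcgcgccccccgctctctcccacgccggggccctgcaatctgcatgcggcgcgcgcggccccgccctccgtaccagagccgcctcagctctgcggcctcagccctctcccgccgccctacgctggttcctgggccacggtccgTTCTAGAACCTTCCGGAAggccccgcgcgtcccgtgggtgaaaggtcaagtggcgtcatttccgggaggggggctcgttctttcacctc

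Of the 14 members with GAANNTTC, 10 were tested at 24 h, with Hspb1 the 1 called higher and 0 lower, and 11 at 72 h, with 5 higher (Hspa1a, Hspa1b, Hspb1, Hspb6, Hspb8) and 1 lower (Hspe1). Reads of Hspa1a and Hspa1b can be assigned to either copy, so the pair is not taken as separate counts. Hspa1a and Hspb1 passed the filter through their KD samples, so their calls lend this count no support. Of the members with a window but without these letters, 5 of 33 were higher and 5 lower at 24 h, and 1 of 36 was higher and 3 lower at 72 h. Cryab, Dnajc12, Hsp90aa1, Hsp90ab1 and Hspb2, called higher at both times, have no window and enter neither side. Over all genes the letters went with no larger share of higher calls, 9.11% of 516 genes with them and 11.1% of 6938 without them at 72 h. The 4 members with the 3-unit form, Dnajb6, Hspd1, Hspe1 and Hsph1, were tested at both times and 0 of them were called higher. The matches of Hspd1 and Hspe1 cover the same bases of chromosome 1, so these genes are not separate counts either.

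The ER stress response element was present in 3 of the 60 members (5%) against 0.137% of all genes, namely Hspa5, Hsp90b1 and Dnajc3. They are printed because these 3 carry it while only the former 2 were lower in KD at 24 h.
Hspa5, chr2:34771840-34772089, plus strand: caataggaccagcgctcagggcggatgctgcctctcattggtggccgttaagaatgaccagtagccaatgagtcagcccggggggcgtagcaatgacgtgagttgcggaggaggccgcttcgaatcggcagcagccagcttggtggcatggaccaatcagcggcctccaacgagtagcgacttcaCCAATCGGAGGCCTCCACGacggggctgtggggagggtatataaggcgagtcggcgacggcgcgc
Hsp90b1, chr10:86705445-86705694, minus strand: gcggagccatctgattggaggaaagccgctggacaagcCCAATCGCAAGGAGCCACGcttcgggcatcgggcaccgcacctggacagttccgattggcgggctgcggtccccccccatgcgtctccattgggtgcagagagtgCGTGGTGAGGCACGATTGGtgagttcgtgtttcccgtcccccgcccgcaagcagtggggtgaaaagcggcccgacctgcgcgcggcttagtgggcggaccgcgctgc
Dnajc3, chr14:118937682-118937931, plus strand: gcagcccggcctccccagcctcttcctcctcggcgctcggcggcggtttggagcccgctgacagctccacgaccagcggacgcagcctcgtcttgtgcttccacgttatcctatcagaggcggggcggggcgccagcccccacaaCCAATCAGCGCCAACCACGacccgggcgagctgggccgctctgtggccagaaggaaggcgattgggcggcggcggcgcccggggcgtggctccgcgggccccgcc
Hsp90b1 holds 2 matches, centred 202 and 98 bases before the start site and facing opposite ways, and Hspa5 holds 1 at 56 bases before it. Of all genes with the element, 5 of the 12 tested were lower at 24 h (41.7%) and 4 of the 14 tested at 72 h (28.6%), beside 12.5% of all symbols at either time. These include the members themselves.

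**Figure D4:**
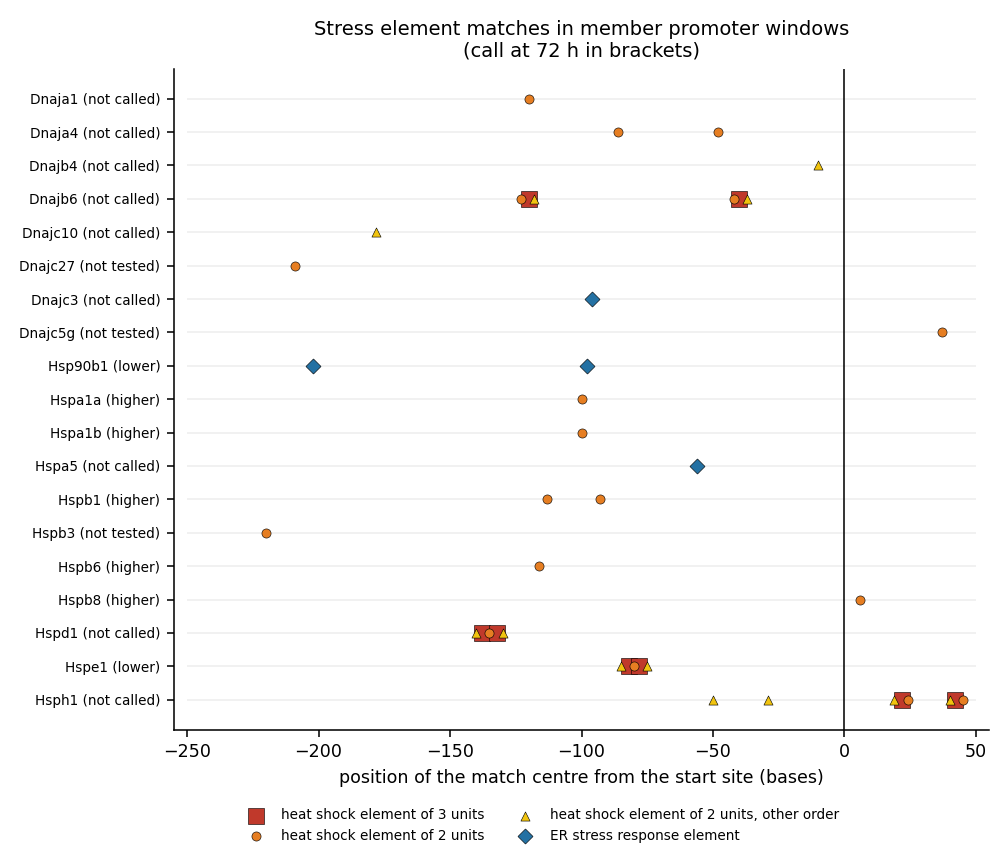
Position of the centre of each match, in bases from the start site, in the promoter windows of members with a heat shock element of 3 or 2 units or an ER stress response element, with the call at 72 h in brackets. The matches of Hspa1a and Hspa1b lie at the same place, 100 bases before the start.

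Across the 2 times 55 members were tested at both. Of these 7 were higher at both (Cryab, Dnajc12, Hsp90aa1, Hsp90ab1, Hspa4, Hspb1, Hspb2) and 2 lower at both (Dnajc15, Hsp90b1). Hspb1 passed the filter through its KD samples and lends this count no support. Among all symbols with a test at each time, the share with a call at each was 11.8%. A further 5 members were called higher and 3 lower at 24 h but not at 72 h, 3 were higher and 2 lower at 72 h but not at 24 h, and 0 changed direction among the calls. The remaining 33 were called at neither time.

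Whether the knockdown effect at 72 h differed from that at 24 h was tested by an interaction term over all groups. Of 60 members tested, 0 were called in limma and 0 with voom on the recovered reads, beside 0.262% of all symbols in limma. An unadjusted p under 0.05 was found in 12 members, and in 1315 of all 10314 symbols tested. The 3 smallest p-values belonged to Hspa1b, Cryab and Hspb8. The effect of Hspa1b was larger at 72 h by 1.33 ± 0.31 on the log2 scale (adjusted p = 0.08), that of Cryab by 0.99 ± 0.29 (adjusted p = 0.16) and that of Hspb8 by 0.63 ± 0.21 (adjusted p = 0.22).

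**Figure D5:**
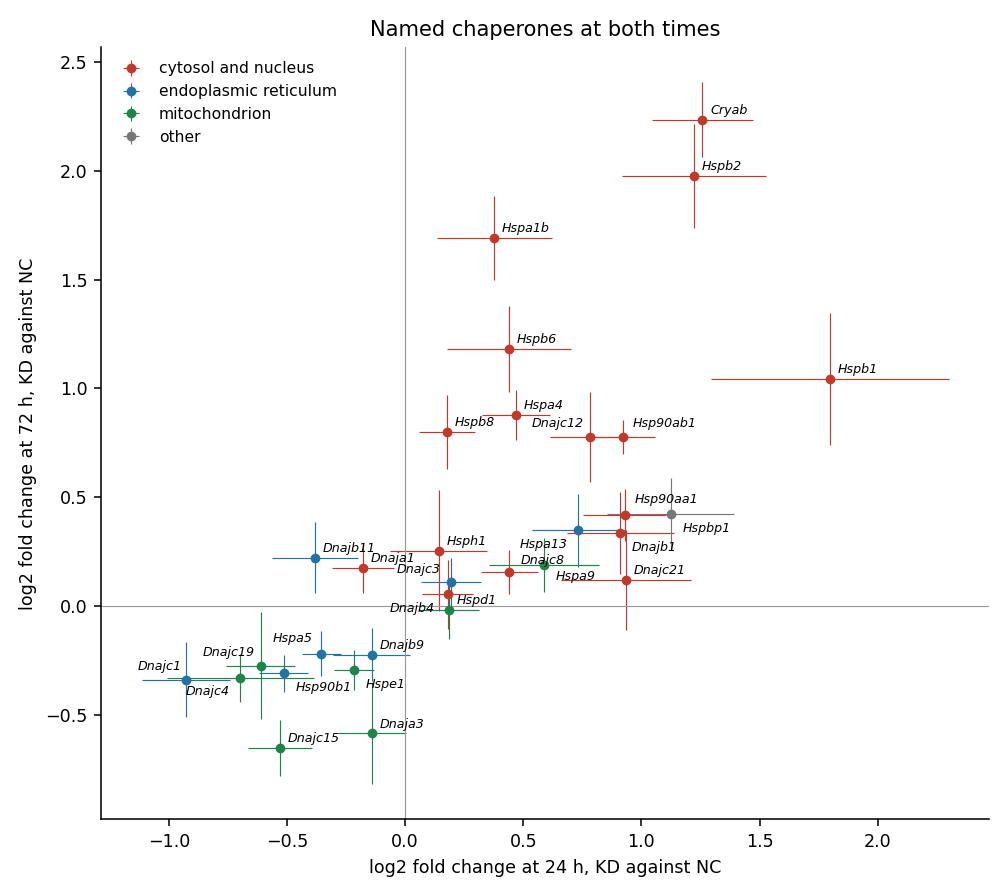
Log2 fold change of KD against NC at 24 h (x axis) and 72 h (y axis) with SE for the named members tested at both times, coloured by compartment. Cytosolic members fill the upper right, with Cryab (1.26 and 2.24) and Hspb2 (1.22 and 1.98) the farthest, and Dnajc15 and Hsp90b1 lie in the lower left.

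In the control cells alone the mitochondrial chaperonin pair and the ER forms of HSP90 and HSP70 were lower at the later time. Between NC 24 h and NC 72 h 56 members were tested, of which 3 were called higher and 4 lower at 72 h (12.5%), against 9.56% of all symbols, 5.17% higher and 4.4% lower, and without scaling or with scaling by the median of ratios the split was 2 and 5. Of the mitochondrial members 2 of 10 were lower and 0 higher (median -0.12), and of the ER members 2 of 13 were lower and 1 higher (median -0.03). The log2 fold change of Hspd1 was -0.58 ± 0.12 (limma adjusted p = 0.007), that of Hspe1 -0.44 ± 0.08 (adjusted p = 0.0041), that of Hsp90b1 -0.37 ± 0.07 (adjusted p = 0.0053) and that of Hspa5, named here after its value was seen as the remaining lower call, -0.25 ± 0.07 (adjusted p = 0.042). Cryab was higher at 72 h by 0.74 ± 0.19 (adjusted p = 0.024), Dnajc18 by 0.61 ± 0.17 (adjusted p = 0.033) and Hspb11 by 0.45 ± 0.13 (adjusted p = 0.048). The call of Cryab was lost without NC 24 h replicate 2 (0.64), NC 72 h replicate 4 (0.67) or NC 72 h replicate 5 (0.69), that of Dnajc18 in 6 and that of Hspb11 in 8 of the 11 fits that left out a library. This comparison shares its control samples with the knockdown comparisons.

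Genes that work with the members were followed in lists. Beside their counts, 11.6% of all symbols tested were higher and 12.5% lower at 24 h, and 11.1% and 12.5% at 72 h. On unscaled RPKM 2496 of 9837 symbols were higher and 576 lower at 72 h. Of the subunits of the cytosolic chaperonin TRiC and of prefoldin, which feeds it actin and tubulin, 6 of 13 tested were higher and 0 lower at 24 h (median log2 fold change 0.28), and 6 and 0 at 72 h (median 0.20). Cct6a rose by 0.93 ± 0.18 at 24 h (limma adjusted p = 0.0028), Cct3 by 0.70 ± 0.10 at 24 h (adjusted p = 0.00047) and 0.64 at 72 h (adjusted p = 0.00033). Of the HSP90 co-chaperones 5 of 16 were higher and 0 lower at 24 h (median 0.32), and 4 higher and 1 lower at 72 h (median 0.27). Ppid, a prolyl isomerase of the HSP90 complex, gave 0.90 at 24 h (adjusted p = 0.0022) and 0.70 at 72 h (adjusted p = 0.0026), Ahsa1, which speeds its ATPase, 0.79 at 24 h (adjusted p = 0.022), and St13 (HIP) 0.76 at 72 h (adjusted p = 0.00026). On unscaled RPKM the 72 h counts were 9 and 0 for TRiC and prefoldin and 8 and 0 for the co-chaperones. In the smaller cluster alone TRiC and prefoldin gave 3 higher and 0 lower at 24 h and 0 and 1 at 72 h (medians 0.29 and 0.13), and the co-chaperones 3 and 0, then 1 and 1 (medians 0.25 and 0.17). In the larger cluster alone the counts were 6 and 0, then 8 and 0, for TRiC and prefoldin, and 3 and 0, then 6 and 0, for the co-chaperones. Of all symbols, 2.61% at 24 h and 9.91% at 72 h were called in the smaller cluster alone, and 26.7% and 25.7% in the larger. These shares stand beside the cluster counts of the lists below as well.

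The unfolded protein response of the ER showed the opposite sign. Of 20 genes tested 0 were higher and 8 lower at 24 h (median -0.35), and 0 were higher and 7 lower at 72 h (median -0.27), which fell to 0 higher and 1 lower on unscaled RPKM (median -0.02). The counts were 0 higher and 4 lower, then 0 and 5, in the smaller cluster alone, and 1 and 8, then 1 and 4, in the larger. Sil1, which exchanges the nucleotide of BiP, had log2 fold changes of -1.70 ± 0.18 at 24 h (limma adjusted p = 6.3e-05) and -1.30 at 72 h (adjusted p = 0.00049), and -1.05 at 72 h without scaling (adjusted p = 0.0025). Atf6, a sensor of unfolded protein in the ER, gave -1.09 (adjusted p = 0.015) and -0.80 (adjusted p = 0.039). Pdia4 and Pdia6, oxidoreductases that form disulphide bonds, gave -0.87 and -0.53 at 24 h (adjusted p = 0.014 and 0.0018), and Xbp1, the other transcription factor of the response, -0.50 at 72 h (adjusted p = 0.0061).

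Of the exchange factors of HSP70 and the BAG proteins 3 of 10 were higher and 1 lower at 24 h, and 1 higher and 2 lower at 72 h (3 and 1 unscaled). Bag3, which hands clients of Hspb8 to autophagy, was higher at both times, by 0.86 (limma adjusted p = 0.035) and 0.93 (adjusted p = 0.037), and the lower call at 24 h was Sil1. Of other known targets of HSF1 4 of 13 were higher and 1 lower at 24 h (median 0.30), and 5 higher and 2 lower at 72 h (median 0.38; 7 and 1 unscaled). Among them Sqstm1 (p62) was higher by 1.01 at 24 h (adjusted p = 0.0038) and 0.74 at 72 h (adjusted p = 0.00017), Zfand2a by 0.94 (adjusted p = 0.018) and 1.61 (adjusted p = 0.00049), while Serpinh1, the collagen chaperone of the ER, was at -0.57 at 72 h (adjusted p = 0.0025). In the smaller cluster alone the exchange factors gave 0 higher and 1 lower at 24 h and 1 and 1 at 72 h, and the HSF1 targets 0 and 1, then 4 and 1 (medians 0.25 and 0.15).

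Of the heat shock factors and their binding protein Hsbp1, 3 were tested, with Hsf2 higher at 24 h (0.40 ± 0.12, limma adjusted p = 0.028) and 0 called at 72 h. Hsf1 itself was low in all groups and had -0.70 at 24 h (adjusted p = 0.24) and 0.05 at 72 h (adjusted p = 0.91). Of 17 genes of mitochondrial protein quality control 1 was higher and 2 lower at 24 h (median 0.06), and 2 higher and 3 lower at 72 h (median 0.03; 5 and 0 unscaled). In the smaller cluster alone 0 were called at 24 h and 1 lower at 72 h. Yme1l1, an inner membrane protease, was the member lower at both times, at -0.73 (adjusted p = 0.008) and -0.90 (adjusted p = 0.041).

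The 20 members that did not pass the filter at 24 h were all low, with group means from 0 to 2.70 scaled RPKM. They include the testis forms Hspa1l, Hspb9, Dnajb3, Dnajb7, Dnajb8, Dnajb13, Dnajc5b and Dnajc5g, the muscle forms Hspb3 and Hspb7, the neuronal clathrin uncoating factor Dnajc6 and the endothelial Hspa12b. Hspb9, Dnajb8, Dnajc5g and Dnajc6 were listed at 0 in every sample. For Dnajb12 the RefSeq entry was low (0.685 to 1.16) while an Ensembl entry, ENSMUST00000147914, had 23.7 in KD 24 h and 31.6 in NC 24 h without a call (limma adjusted p = 0.069). At 72 h Dnajc17, Hspa1a, Hspa4l, Hspa8 and Hspb7 entered the test in addition, and of these Hspa1a was called.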

How the data were processed

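The 24 libraries were 3′ end libraries made by bulk RNA barcoding and sequencing from brite adipocytes given the Ctcflos (KD) or the nontargeting (NC) gapmer for 24 h or 72 h, and were grouped by their sample titles. Mapping was done by the authors in the Genomatix suite, and they deposited 1 table of RPKM for 168326 transcript entries of RefSeq, Ensembl and GenBank, which overlap within a gene. The deposited values carry decimal commas, for which reason they are listed as a score in the record of units, and they were read as RPKM. Genome build, strand and version were not given in the sources used here, and 0 columns were left unused.

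Mapped totals and whole reads were recovered from the steps of the RPKM, with 93.7% to 94.2% of low values whole within 0.05 of a read and 89.6% of 25078 Ensembl entries at the length given by GENCODE M21. Precision is limited by these depths, and statements on depth cover counting error only. An entry was tested if the number of samples in which it stood at 10 or more reads, counted at the median depth, was at least the size of the smaller group, and if it had 15 reads over all samples. Scaling factors were trimmed means of log ratios (30% and 5% trimmed), found anew for each comparison. The log2(scaled RPKM + 0.1) values entered linear models in limma 3.58.1 in R 4.3.3 with an intensity trend, tested two-sided and adjusted by Benjamini-Hochberg over all entries tested. Fold changes on this scale understate those of low genes. The script was tested on simulated data with known changes.

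The members and lists were chosen with earlier results of these data known. Named were a fixed set of well-known chaperones, the further calls of each knockdown comparison by size, up to 6 calls of the control comparison, the 3 smallest p of the interaction and up to 4 calls per list. Samples with the same replicate number did not deviate together (mean correlation -0.05 at 24 h, 0.03 at 72 h and 0.04 between the controls), so the numbers were not used as pairs. Alternatives varied the scaling, pseudocount, filter, table, test (voom on the recovered reads), replicate block, cluster of libraries, the libraries included and the transcript entry.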

Additional observations from a re-analysis of the deposited data

Results flagged for a closer look

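Single samples were compared with the rest of their group by Dixon's ratio in 140 groups of values from 35 members. In 11 of them 1 sample stood apart, where chance gives about 7, or 1 in 20. The values are scaled RPKM, and the causes were not tested.

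In KD 24 h replicate 6 was the lowest for Hspb6, at 6.80 beside 20.1 to 25.5 in the other samples, and the highest for Hspa5, at 119 beside 100 to 104. That library had the fewest mapped reads, 1391832. In KD 72 h replicate 2 was the highest for Dnajc21 (10.1 beside 4.68 to 6.505) and for Hspa8 (2.26 beside 0.766 to 1.14), and replicate 1 was the highest for Hsp90aa1 (35.95 beside 26.2 to 29.3). In NC 24 h replicate 5 was the lowest for Dnajc18 (2.57 beside 3.54 to 4.00) and replicate 6 the highest for Dnajc4 (35.7 beside 28.4 to 30.2). In NC 72 h the mean of replicates 2 and 3 was the lowest for Dnajb4 (13.0 beside 20.01 to 21.3) and the highest for Dnajc4 (39.5 beside 31.0 to 33.4), replicate 1 was the highest for Dnajc21 (9.53 beside 4.45 to 5.53), and replicate 6 the highest for Hspe1 (389 beside 283 to 310).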

How the results depend on the processing

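The count of called members was 17 at 24 h, 15 at 72 h, 7 between the controls and 0 for the interaction. Leaving out 1 library gave 15 to 20, 11 to 14, 3 to 6 (3 without NC 24 h replicate 2) and 0. Within the smaller cluster alone, with 2 libraries a group, the counts were 2, 8, 1 and 3. Of all symbols 2.61%, 9.91%, 3.39% and 2.96% were called there. Without a filter the control comparison gave 3. The interaction gave 3 calls without scaling, and 1 each with 1 RefSeq entry per symbol, with the cluster as a covariate and with NC 72 h replicates 2 and 3 kept apart. The replicate number as a block gave 15, 9, 5 and 0 calls, with numbers that do not pair the samples. All other counts lay within 1.5 times. The causes were not tested, beyond fewer samples in a cluster.

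Of single members, none with a call reversed. At 24 h within the smaller cluster Hspa1b turned to -0.068, Dnaja3 to 0.11 and Dnajb9 to 0.36, and Hsph1 ranged from -0.00084 to 0.23 with a library left out. At 72 h without scaling Hspa5 turned to 0.031, Hspd1 to 0.23 and Dnajb9 to 0.026. With the most abundant entry of any kind, an alternative chosen after seeing the data, Hspa8 turned to -0.11 and Dnajb4 to -0.049. With voom Hspa8 was -0.052. The larger cluster gave Hspd1 0.075 and Dnajc19 0.036, the smaller Hspa8 -0.31, Hsph1 -0.16, Dnajb4 -0.28 and Dnajc8 -0.10, and NC 72 h replicates 2 and 3 kept apart gave Hspd1 0.0080. With a library left out at 72 h Hspa8 ranged from -0.18 to 0.29, Hspd1 from -0.084 to 0.084, Dnajb4 from -0.088 to 0.11 (-0.0063 without KD replicate 2) and Dnajc21 from -0.018 to 0.30. In all, 813 of the other alternative values kept their direction and call, 64 lost and 22 gained a call and 16 turned sign, and with a library left out 794, 54, 4 and 10 did so. Depth limits the low members, among them Hspa1a, Hspa1b and Hspb1.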
